A study of Homo sapiens with 18 samples.

Results

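Splicing regulators of 2 families, the SR proteins and the heterogeneous nuclear ribonucleoproteins (hnRNPs), were measured in A549 cells after culture with and without airborne formaldehyde. The family members were taken by name: every gene whose symbol was SRSF or HNRNP with its number or letters, or TRA2A or TRA2B, and which had a probe set assigned to it and to no other gene. This gave 32 genes, 10 SRSF genes, 20 HNRNP genes and both TRA2 genes, of 19775 genes measured in the same way. They were covered by 125 of 54675 probe sets, and each gene was represented by its brightest probe set, the one with the highest mean log2 signal over all arrays. A further 13 probe sets carried a family symbol together with a second gene and were not used, so 10 family symbols, SRSF2 and SRSF9 among them, have no value here.

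SR proteins carry an RNA-binding domain and a tail rich in arginine and serine, bind enhancer sequences in exons and recruit the spliceosome, the machine that removes introns. hnRNPs coat nascent transcripts and often act in the opposite sense, by binding silencer sequences and keeping an exon out of the mature mRNA. TRA2A and TRA2B are SR-like proteins with such tails, and the balance of both families sets which isoforms a cell makes.

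A549 is a line from a human lung carcinoma, and the cultures were grown at the air-liquid interface and kept for 72 h in an incubator chamber. In each experiment cultures stood in the exposure chamber, at 0, 0.1 or 0.5 ppm formaldehyde, and in the reference chamber, which received humidified air without formaldehyde, and each chamber gave 1 array. Whether the RNA of an array came from a single culture or from several is not given in the sources used here. Each concentration was run in 3 experiments, which gave 6 groups of 3 arrays and 18 arrays in all. All of them come from a single cell line, so the values say nothing of primary lung epithelium.

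The signals had been scaled by the authors to a common trimmed mean, and the median signal of an array lay between 26.7 and 34.0. The 9 measured markers of epithelium and of A549 were above their array's median on all 18 arrays. Of the markers of other cell types, 5 of 6 fibroblast, 4 of 5 leukocyte and 4 of 5 endothelial genes were above it on none. COL1A1 and CD14 were above it on 18 arrays and PECAM1 on 7. The arrays differed in actin, a control transcript probed at both ends: the log2 signal of the 3' probe set minus that of the 5' probe set ran from 4.24 to 8.67, with a median of 5.84. Replicate 1 of the reference chamber at 0.1 ppm (8.67) and replicate 3 of the one at 0 ppm (7.57) stood apart, above 6.75, the highest of the other 16 arrays. A larger difference is commonly read as fewer copies that reach the 5' end, and the labelling kit amplified from the 3' end of the RNA. For GAPDH, the other transcript probed at both ends, the difference was 0.150 and 0.163 on these 2 arrays, near the low end of its range of 0.150 to 0.641, so the 2 controls did not single out the same arrays.

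The splicing regulators were well measured with few exceptions. The mean signal of a gene ran from 13.4 for HNRNPA3P1, a transcribed pseudogene of HNRNPA3, to 18362 for HNRNPH1, a factor that binds runs of G in RNA. Low signals were also found for SRSF12 (mean 88.2), HNRNPL (173) and SRSF4 (183), and the other 28 genes had means of 265 or more. Bright genes could be steady, such as HNRNPA0, whose log2 signal stayed between 13.49 and 13.93, and HNRNPR, between 13.50 and 14.02. Probe sets differ in how strongly they bind, so these signals are not an order of abundance. The SD of a gene's log2 signal within groups had a median of 0.31 over the 32 genes, from 0.086 for HNRNPH3 to 1.14 for HNRNPA3P1. The brightest probe sets of HNRNPA1, HNRNPU, SRSF5, SRSF7 and SRSF8 have names ending in _x_at, with which the manufacturer marks probes that can also bind other transcripts, so their values may include related genes.

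**Figure D1:**
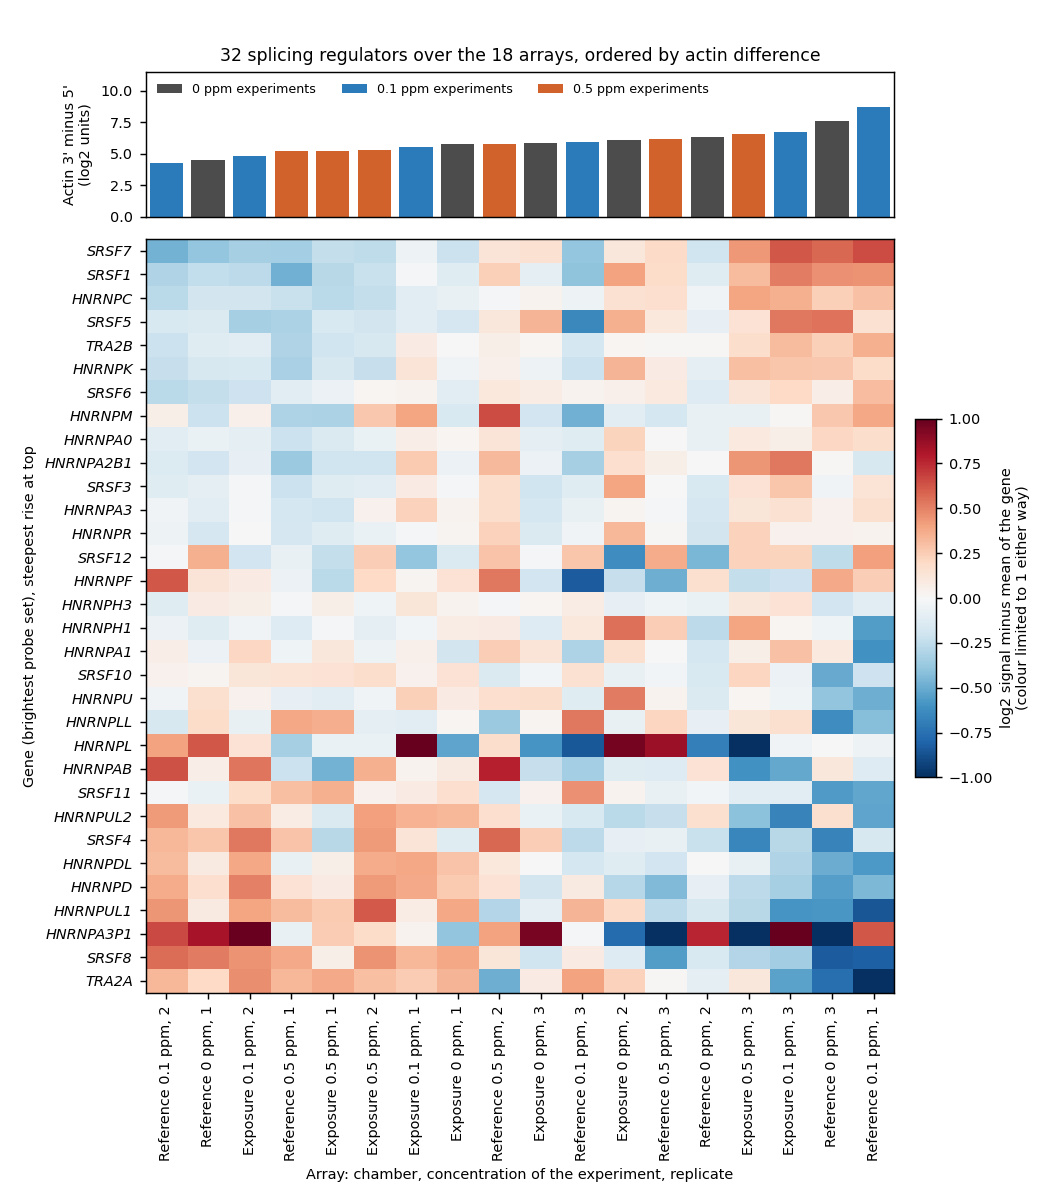
Log2 signal of the 32 splicing regulators (rows, brightest probe set, minus the gene's mean over 18 arrays, as colour) on each array (columns), ordered by the actin 3' minus 5' difference shown as bars in log2 units. Genes are ordered by their slope over that difference. SRSF7, SRSF1 and HNRNPC at the top were higher and TRA2A and SRSF8 at the bottom lower on the arrays to the right. Arrays of the 0.5 ppm experiments lie between 5.23 and 6.57, and both ends of the order hold arrays of the 0 and 0.1 ppm experiments only.

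To see whether formaldehyde changed these genes, the chambers of each concentration and the exposure chambers of different concentrations were compared. None of the 32 splicing regulators passed the threshold for a rise or a fall in any of these comparisons. The threshold was that of the study, p under 0.05 without adjustment. In limma, 0 of 32 passed it between exposure and reference chamber at 0 ppm, where 4.84% of all probe sets passed, 0 at 0.1 ppm (4.00%) and 0 at 0.5 ppm (3.92%). Within the exposure chamber 0 of 32 passed between 0.1 and 0 ppm (4.47% of all probe sets) and 0 between 0.5 and 0 ppm (4.56%). With shares of all probe sets this low, 0 of 32 is not a result particular to the family. The smallest p of a member in these 5 comparisons was 0.210, and after Benjamini-Hochberg adjustment no probe set of the array passed in any of them. As each array measured RNA of whole cultures, fewer cells of a kind and less RNA per cell cannot be told apart.

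With 3 arrays against 3 the intervals were wide. The 95% interval of a member's log2 difference had a median half-width of 0.69 for the chambers at 0 ppm, 0.94 at 0.1 ppm, 0.70 for those at 0.5 ppm, and 0.64 and 0.63 in the comparisons within the exposure chamber. The 0.1 ppm comparison holds the array of highest actin difference.

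Between the chambers at 0 ppm, where neither received formaldehyde, 25 members were higher and 7 lower in the exposure chamber, with a median log2 difference of 0.081, against -0.071 over all probe sets. At 0.1 ppm 27 were higher and 5 lower, with a median of 0.15 (all probe sets -0.073), or 0.062 after quantile normalization. Leaving out any 1 of the 6 arrays gave 19 to 24 higher members at 0 ppm, with medians of 0.028 (without exposure replicate 2) to 0.14 (without exposure replicate 1), and 21 to 26 at 0.1 ppm, with medians of 0.082 (without reference replicate 3) to 0.20. At 0.5 ppm 14 were higher and 18 lower, with a median of -0.0071 (all probe sets -0.042). Single arrays turned this direction, with 24 higher and a median of 0.077 without reference replicate 2, and 22 and 0.053 without exposure replicate 1. It also turned without exposure replicate 2 (20 higher, 0.027) or reference replicate 3 (17 higher, 0.019). The median was further below 0 without reference replicate 1 (10 higher, -0.098) or exposure replicate 3 (11 higher, -0.076). Within the exposure chamber 22 of 32 were higher at 0.1 than at 0 ppm (median 0.055, all probe sets -0.034), and 14 at 0.5 ppm (median -0.022, all probe sets -0.035, and 0.0049 for the members after quantile normalization). Without 0 ppm replicate 3 the first of these medians was 0.017, and without 0 ppm replicate 2 the second was 0.030, with 19 higher. The second was also above 0 without 0.5 ppm replicate 1 (0.0036) or replicate 3 (0.0071). Both share their 0 ppm arrays.

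**Figure D2:**
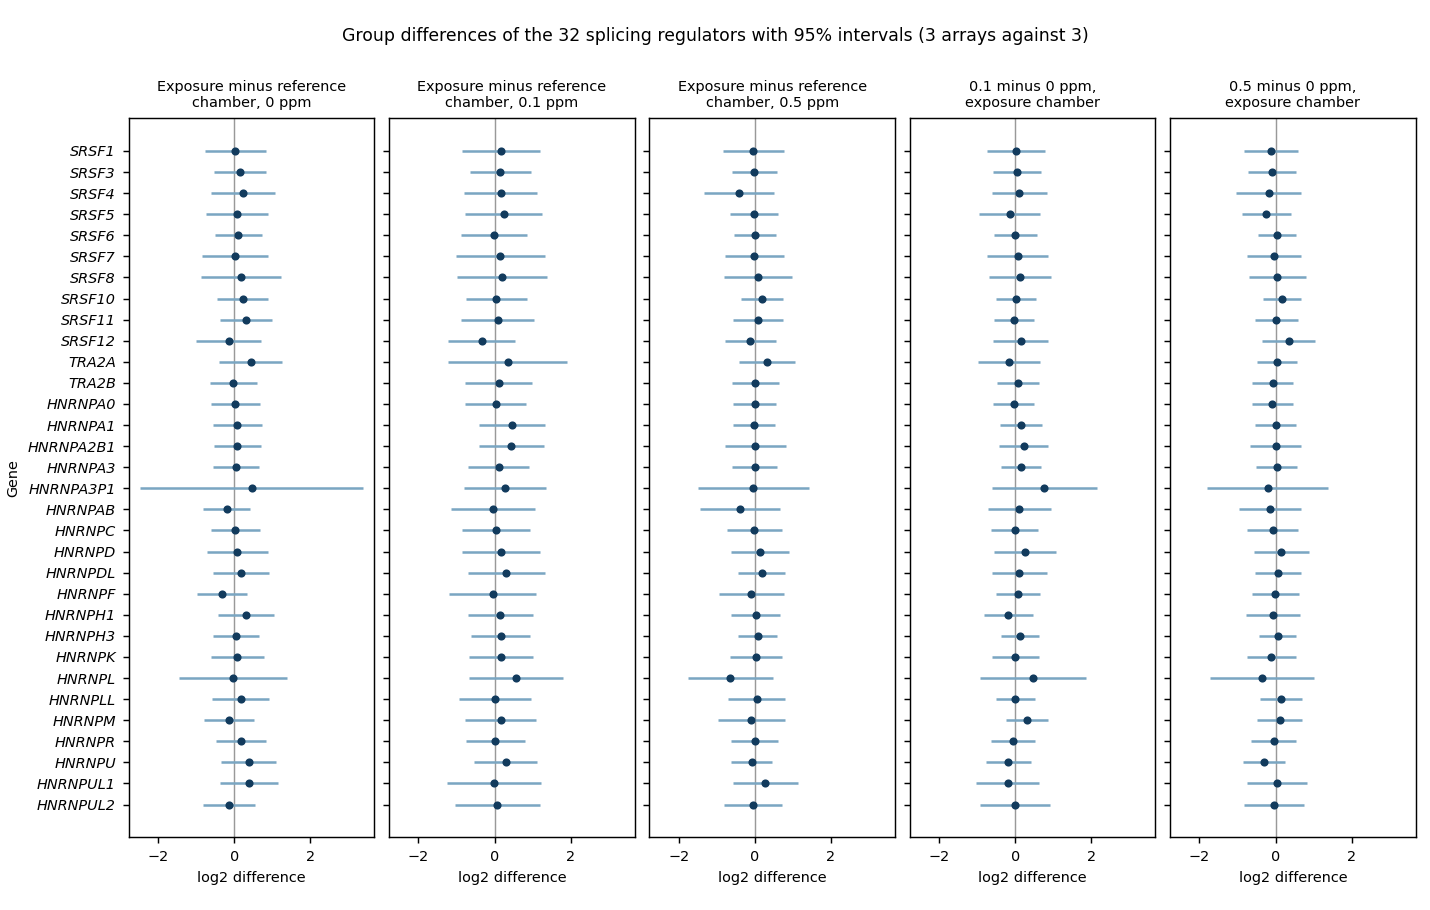
Log2 difference (points, horizontal axis) with its 95% interval (lines) for each of the 32 splicing regulators (rows) in 5 comparisons of 3 arrays with 3. Every interval crosses 0, and the points lie between -0.64 and 0.76.

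A few genes, named here after their values were seen, had arrays that did not overlap between groups, although their differences did not pass. SRSF11, an SR-related protein, was the 1 such member at 0 ppm, where 10.0% of all probe sets did not overlap. Its log2 signals were 12.61, 12.48 and 12.49 in the exposure chamber against 12.37, 12.41 and 11.88 in the reference chamber, a difference of 0.30 (SE 0.28, adjusted p = 0.880 in limma). The lowest of these, 11.88, came from the reference array of high actin difference.

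At 0.1 ppm the 1 such member was HNRNPA2B1, which binds RNA in the nucleus and sorts some RNAs for transport (7.87% of all probe sets). It was at 13.80, 13.46 and 14.07 in the exposure chamber and at 13.38, 13.40 and 13.21 in the reference chamber, a difference of 0.44 (SE 0.35, adjusted p = 0.998). Every exposure array was higher, but replicate 2 by only 0.056 above its own reference. At 0.5 ppm it was SRSF10, an SR protein that can also repress splicing (6.75% of all probe sets), at 11.90, 11.94 and 11.98 against 11.90, 11.62 and 11.74, a difference of 0.18 (SE 0.22, adjusted p = 1.00). Its lowest exposure array and its highest reference array, both of replicate 1, differed only beyond the decimals given.

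In the exposure chamber HNRNPM and HNRNPH3 did not overlap between 0.1 and 0 ppm (8.57% of all probe sets). HNRNPM, known for splicing changes in the epithelial-mesenchymal transition, had log2 signals of 12.47, 12.13 and 12.09 at 0.1 ppm and of 11.93, 11.97 and 11.89 at 0 ppm, a difference of 0.30 (SE 0.22, adjusted p = 1.00). The 0.1 ppm arrays were all higher, and replicate 1 stood above the other two. HNRNPH3 differed by 0.12 (SE 0.20, adjusted p = 1.00), with 12.54, 12.48 and 12.56 against 12.46, 12.34 and 12.44.

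HNRNPU, which binds RNA and chromatin in the nuclear matrix, was the 1 member not overlapping between 0.5 and 0 ppm (8.55% of all probe sets). It was at 13.70, 13.78 and 13.83 at 0.5 ppm and at 13.89, 14.32 and 13.98 at 0 ppm, lower on all 3 arrays, with a difference of -0.30 (SE 0.22, adjusted p = 1.00). The widest differences belonged to genes of low or scattered signal. HNRNPL, a regulator that binds CA repeats, differed by 0.57 between the chambers at 0.1 ppm (SE 0.51) and by -0.64 at 0.5 ppm (SE 0.45), and HNRNPA3P1 by 0.76 between 0.1 and 0 ppm in the exposure chamber (SE 0.55).

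Whether the chamber difference itself changed with formaldehyde was tested as a difference of differences. Against 0 ppm, 0 of 32 members passed at 0.1 ppm (3.21% of all probe sets) and 0 at 0.5 ppm (3.69%). The median over members was 0.043 at 0.1 ppm, with 19 above 0, and -0.0070 after quantile normalization. It was -0.017 without reference replicate 3 and -0.014 without exposure replicate 3 of 0.1 ppm. At 0.5 ppm it was -0.078, with 7 above 0, against 0.010 over all probe sets. Without reference replicate 2 of 0.5 ppm it was -0.018 and without exposure replicate 1 it was -0.039, each with 15 above 0, and without reference replicate 1 it was -0.14. HNRNPU was the member with the smallest p at 0.5 ppm, where its chamber difference changed by -0.47 from that at 0 ppm (SE 0.32, adjusted p = 1.00).

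When all 125 probe sets of the family were read in place of the brightest of each gene, 2 passed at 0 ppm, 1 at 0.1 ppm, 0 at 0.5 ppm, 1 between 0.1 and 0 ppm and 3 between 0.5 and 0 ppm, at the unadjusted threshold. These counts of 125 are below the shares of all probe sets (4.84%, 4.00%, 3.92%, 4.47% and 4.56% in the same order), so they are not a result about the family, and the values are given as a description. They belong to HNRNPM, SRSF1, SRSF4, HNRNPD and SRSF3 and are named after their values were seen. A second probe set of HNRNPM had log2 signals of 1.52, 2.23 and 1.69 in the 0 ppm exposure chamber, 3.63, 3.60 and 3.77 in its reference chamber and 3.40, 3.71 and 5.11 in the 0.1 ppm exposure chamber. All of these but the 5.11 are below the median signal of their array, so the size of its differences is to be read with caution. The log2 differences were -1.86 between the chambers at 0 ppm (SE 0.30, adjusted p = 0.346) and 2.26 between 0.1 and 0 ppm (SE 0.52, adjusted p = 0.780), and both rest on the same 3 low arrays. A further probe set of SRSF1, a founding member of the SR proteins, was at 6.14, 6.27 and 6.08 in the 0 ppm exposure chamber, above 5.74, 5.01 and 4.85 in the reference chamber and above 5.28, 5.36 and 4.46 at 0.5 ppm. The log2 differences were 0.96 (SE 0.33) and -1.13 (SE 0.31), and both rest on those 3 arrays without formaldehyde. The brightest probe sets of both genes did not pass in these comparisons.

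Other genes of the splicing machinery were read from lists. Of 11 measured kinases and phosphatases that set the phosphorylation of SR proteins, of 9 hnRNP proteins named otherwise, of 26 other splicing regulators and of 31 parts of the core spliceosome, 2 genes passed the unadjusted threshold in any of the 5 comparisons, both between 0.5 and 0 ppm in the exposure chamber, where 4.56% of all probe sets passed. U2AF2, the large subunit of the factor that marks the 3' splice site, had signals of 283, 273 and 207 at 0.5 ppm against 725, 834 and 622 at 0 ppm, lower on all 3 arrays. It fell by 1.52 on the log2 scale (SE 0.25, adjusted p = 0.410 in limma). Between the chambers at 0.5 ppm no core spliceosome gene passed, and the lowest log2 difference among the 31, U2AF2 included, was -0.80. In the difference of differences at 0.5 ppm none passed either, and the lowest was -0.70. The fall of U2AF2 thus passed the threshold only against the 0 ppm arrays of other experiments. Its own values in the other comparisons are not given here, so whether it was lower there is not shown. SRPK3, a kinase of SR proteins, had signals of 23.1, 16.1 and 13.8 against 1.78, 8.16 and 7.76, which are below the median signal of every array (log2 difference 1.83, SE 0.66, adjusted p = 1.00).

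The genes were also set against the actin 3' minus 5' difference of the arrays. For each gene a slope was fitted over the 18 arrays, in log2 signal per log2 unit of the actin difference. At an adjusted p under 0.05, 14 of 32 splicing regulators were called, 6 rising and 8 falling. Over all probe sets 10.9% were called rising and 10.6% falling, and over the brightest probe set of each of 19775 genes 16.5% and 12.1%. As a description, 6 of 32 rising is close to the share per gene and above that of all probe sets, and 8 of 32 falling is above both. The median slope of the 32 genes was -0.035, with 14 above 0, against 0.059 over all probe sets. After quantile normalization the split was 1 rising and 9 falling, and SRSF7 was the 1 that rose. The median slope was then -0.083 for the 32 genes and 0.019 over all probe sets, whose share called is not given here.

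The 6 rising genes were SRSF7, SRSF1, HNRNPC, TRA2B, HNRNPK and SRSF6, of which SRSF7 alone was also called after quantile normalization. There the slope was 0.25 for SRSF7, 0.052 for SRSF1, 0.055 for HNRNPC, 0.028 for TRA2B, 0.079 for SRSF6 and -0.063 for HNRNPK. SRSF7, an SR protein that also helps mRNA leave the nucleus, had the steepest rise, 0.30 (SE 0.053, adjusted p = 0.000666). Its log2 signal was 13.30 on the array of highest actin difference and 13.22 on the next, against 12.17 to 13.27 with a median of 12.44 on the other 16. SRSF1 was at 14.32 and 14.33 on these 2 arrays and at 13.40 to 14.39, median 13.76, on the others. SRSF7 was thus narrowly at its highest of all 18 arrays on the first of these, and SRSF1 was high on both without being highest.

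SRSF1 had a slope of 0.23 (SE 0.057, adjusted p = 0.00676). HNRNPC, which binds runs of U and packages nascent RNA, had a slope of 0.17 (SE 0.043, adjusted p = 0.00788), and TRA2B one of 0.15 (SE 0.039, adjusted p = 0.0119). HNRNPK, which binds runs of C, had 0.14 (adjusted p = 0.0460), and SRSF6, an SR protein, 0.12 (adjusted p = 0.0289). SRSF5 had a slope of 0.17 that did not pass (adjusted p = 0.0801).

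TRA2A had the steepest fall, -0.42 (SE 0.070, adjusted p = 0.000421). Its log2 signal was 10.93 on the array of highest actin difference and 11.75 on the next, below all of the other 16, which lay between 11.97 and 12.96 with a median of 12.74. All 5 probe sets of TRA2A had slopes below 0, and so had 3 of the 4 of its close relative TRA2B, all but the brightest. SRSF8, a primate gene related to SRSF2, fell with a slope of -0.38 (SE 0.054, adjusted p = 0.000129). It was at 9.46 and 9.44 on the 2 arrays against 9.71 to 10.83, median 10.38, on the others, again below all of them.

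The other falling genes were HNRNPUL1 (-0.33), HNRNPD (-0.25), HNRNPDL (-0.22), SRSF4 (-0.22), HNRNPUL2 (-0.19) and SRSF11 (-0.17). HNRNPUL1 and HNRNPUL2 are relatives of HNRNPU, and HNRNPD, also known as AUF1, and its relative HNRNPDL bind AU-rich elements that govern mRNA decay. HNRNPUL1 was at 11.34 and 11.62 on the 2 arrays and at 11.60 to 12.81, median 12.34, on the others. HNRNPD was at 11.34 and 11.24, against 11.34 to 12.29 with a median of 11.90. HNRNPDL was at 11.93 and 12.02, below all of the others, whereas HNRNPUL2 was at 10.61 on the first and at 11.31 on the second, above its median of 11.23. HNRNPA3P1 had a slope of -0.37 that did not pass (adjusted p = 0.260).

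**Figure D3:**
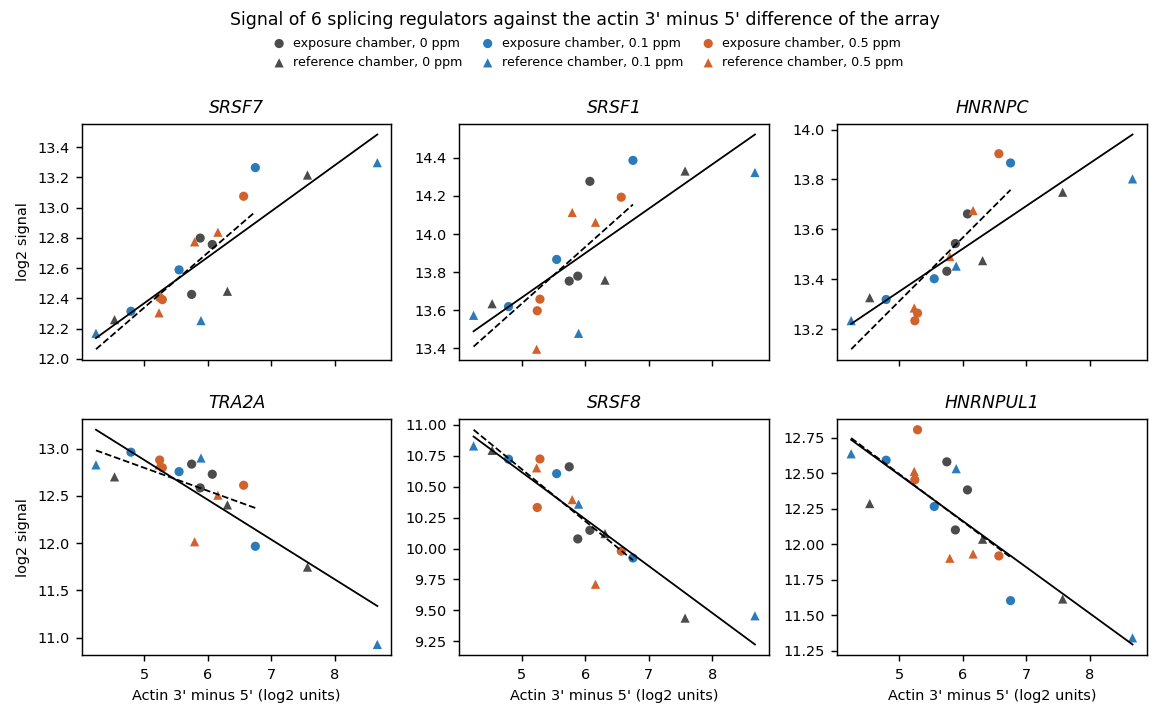
Log2 signal (vertical axis) of 3 rising and 3 falling splicing regulators on the 18 arrays against the actin 3' minus 5' difference of the array in log2 units (horizontal axis). The solid line is the slope over 18 arrays and the dashed line that over the 16 arrays without the 2 of highest difference: TRA2A is at 10.93 on the last array, and its slope goes from -0.42 to -0.24 without both.

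How far these slopes rest on the 2 arrays was read by leaving both out. Over the other 16 arrays 3 members were called, SRSF7 (0.36, SE 0.083, adjusted p = 0.0430) and HNRNPC (0.25, SE 0.062, adjusted p = 0.0493) rising and SRSF8 (-0.42, SE 0.082, adjusted p = 0.0294) falling. Of all probe sets 0.660% were called rising and 1.16% falling over these 16 arrays, and of the brightest per gene 1.10% and 1.07%. All 14 genes called over all arrays kept the sign of their slope, and 13 of them had an unadjusted p under 0.05, SRSF11 being the exception (-0.065). These 14 genes had been selected in a fit that includes the same 16 arrays, so their signs and p-values here are not an independent check. Of all 32 members, 16 had an unadjusted p under 0.05 over the 16 arrays. The share of all probe sets at that threshold is not given here. The slope of TRA2A was -0.24 (adjusted p = 0.212). Over the 16 arrays the median slope of the 32 genes was 0.0097, against -0.0080 over all probe sets, and with group means as covariates it was -0.0028, so it lay near 0 without the 2 arrays.

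With the GAPDH difference in place of that of actin 0 of 32 members were called. Within the 6 arrays of the experiments of 1 concentration 0 members were called at 0, 0.1 or 0.5 ppm. With the 9 experiments as a block, which leaves only the difference between the chambers of an experiment, 2 members were called, TRA2A (-0.52, adjusted p = 0.0321) and SRSF8 (-0.34, adjusted p = 0.0345). Without the reference chamber of 0.1 ppm, replicate 1, 3 members rose in place of 6. Without the exposure chamber of 0.1 ppm, replicate 2, or the reference chamber of 0.5 ppm, replicate 1, 5 fell in place of 8. The shares of all probe sets called under these settings are not given here.

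The probe sets of a single gene often disagreed. Of the 32 genes 29 had more than 1 probe set, and among the 125 probe sets 11 were called rising and 41 falling, where 10.9% of all probe sets were called rising and 10.6% falling. The 93 probe sets that were not the brightest of their gene leaned down, with 5 rising, 33 falling and 70 slopes below 0, whereas the brightest were split 6 to 8. In 6 genes, HNRNPC, HNRNPLL, SRSF1, SRSF10, SRSF6 and TRA2B, 1 probe set was called rising and another falling. With the mean over all probe sets of a gene in place of the brightest, 1 member rose and 12 fell. The share of all genes called in this way is not given here, so these counts are a description only.

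SRSF6 was the extreme case. Its brightest probe set had 13.05 and 12.80 on the 2 arrays of highest actin difference against 12.47 to 12.94, median 12.76, on the others. Its other probe set had 3.80 and 3.05 against 5.15 to 7.62, median 6.82, a slope of -1.02 (SE 0.13, adjusted p = 6.08e-05). The same gene was thus above its median with 1 probe set and far below the lowest of the 16 arrays with the other. The 3.80 and 3.05 are low log2 signals, below the median signal of their arrays (32.8 and 34.0, given on the linear scale and not in log2). The size of this fall is therefore to be read with caution.

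TRA2B gave the same picture. Its brightest probe set had 13.89 and 13.77 on the 2 arrays against 13.24 to 13.85 on the others, and a second probe set had 8.99 and 9.37 against 10.10 to 10.83, with slopes of 0.15 and -0.39 (adjusted p = 4.94e-05 for the latter). In SRSF1 the slopes ran from -0.60 to 0.33. Probe sets that agreed were found in SRSF7, where all 4 slopes were above 0 and 2 were called, and in SRSF11, where all 4 were called falling. Over the 16 arrays 2 of the 125 were called rising and 9 falling, beside 0.660% and 1.16% of all probe sets. Where on its transcript each probe set lies was not analysed here, so distance from the 3' end was not tested.

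**Figure D4:**
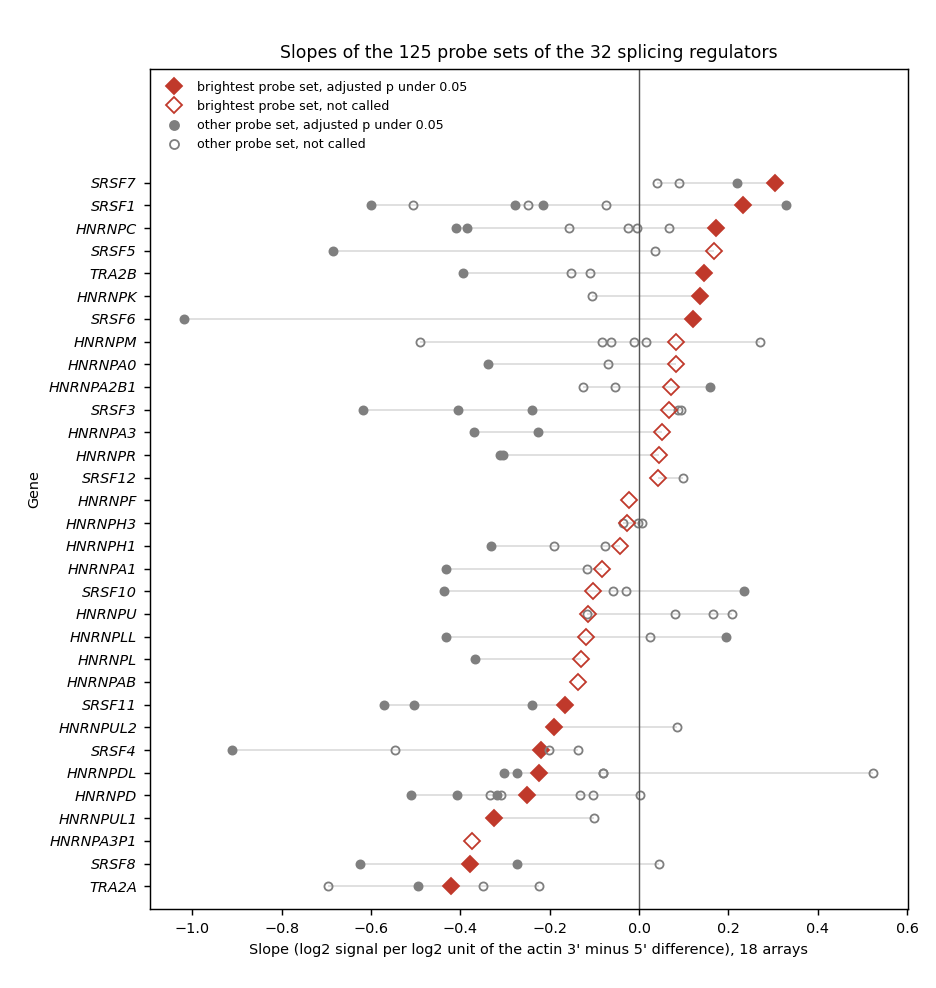
Slope over the actin 3' minus 5' difference on 18 arrays (horizontal axis, log2 signal per log2 unit) of each of the 125 probe sets of the 32 splicing regulators (rows), with diamonds for the brightest probe set of a gene, circles for the others and filled symbols for an adjusted p under 0.05. Of the circles 33 filled ones lie below 0 and 5 above, and in SRSF6 the brightest probe set is at 0.12 and the other at -1.02.

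The other splicing lists had both signs too, with median slopes of -0.044, -0.029, -0.045 and 0.052 in the order below, against 0.059 over all probe sets. Of the kinases and phosphatases of SR proteins 1 of 11 was called rising and 3 falling, of the hnRNP proteins named otherwise 2 and 3 of 9, of the other splicing regulators 3 and 8 of 26, and of the core spliceosome 7 and 3 of 31. Per gene, 16.5% of all genes were called rising and 12.1% falling. Over the 16 arrays 2 of these genes were called (1.10% of all genes rising and 1.07% falling), named after their values were seen. SNRPD2, a core protein of the snRNPs, rose (0.29, SE 0.068, adjusted p = 0.0443) and NOVA1, a splicing regulator known from neurons, fell (-0.42, SE 0.099, adjusted p = 0.0456).

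Promoters are shown for SRSF7 and SRSF8, the steepest rise and the steepest fall among the called genes with an entry, and nothing on slopes is read from this pair. From RefSeq (GRCh38.p14), 29 of 32 members had a promoter of 250 bases before and 50 after the first listed start of the gene, and HNRNPA1, HNRNPA3P1 and TRA2A had none listed. The window of SRSF7 lies at chr2:38751445-38751744 on the minus strand and that of SRSF8 at chr11:95066627-95066926 on the plus strand. Capitals mark matches, on either strand, to the 4 motifs searched, which were the CCAAT box, TATAAA for the TATA box, CCGGAAG for the core of ETS factor sites and GGGCGG for the GC box.
SRSF7: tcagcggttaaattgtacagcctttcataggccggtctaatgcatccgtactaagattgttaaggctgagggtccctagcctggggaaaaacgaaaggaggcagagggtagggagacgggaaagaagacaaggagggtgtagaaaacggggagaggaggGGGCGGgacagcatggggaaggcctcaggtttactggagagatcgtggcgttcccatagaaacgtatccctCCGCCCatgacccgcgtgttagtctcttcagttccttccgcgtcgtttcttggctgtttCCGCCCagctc
SRSF8: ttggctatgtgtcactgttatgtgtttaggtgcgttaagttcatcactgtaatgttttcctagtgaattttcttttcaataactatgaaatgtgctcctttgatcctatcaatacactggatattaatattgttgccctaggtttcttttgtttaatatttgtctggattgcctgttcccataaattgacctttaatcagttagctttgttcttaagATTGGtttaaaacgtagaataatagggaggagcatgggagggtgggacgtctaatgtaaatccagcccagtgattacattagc

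The SRSF7 window had 55.0% G and C with 3 matches to GGGCGG, and the SRSF8 window 36.0% with 1 match to CCAAT, read on the other strand, and no match overlapped another. Over the 29 members the median was 65.0% G and C, against 58.3% over the promoters of all 27305 genes in the table. GGGCGG was found in 20 of 29 member promoters (69.0%, against 44.6% of all), CCAAT in 14 (48.3% against 35.7%), and the TATA box and the ETS core in 5 each (17.2%, against 11.95% and 10.7%). These are matches of letters and say nothing of the binding of a factor.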

How the data were processed

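RNA of 18 A549 samples was hybridised by the authors to Affymetrix HG-U133 Plus 2.0 arrays after 3' amplification. The deposited values are MAS5 signal intensities on a linear scale, which the authors scaled per array. Their 2% trimmed mean was 499.8 to 499.9. Log2 signals, with nothing added and no filter, were compared with limma 3.58.1 in R 4.3.3 (lmFit and eBayes on 3 arrays against 3, 4 groups for differences of differences), the test and threshold of the study, with Benjamini-Hochberg adjustment over all 54675 probe sets. Slopes over the actin difference were fitted over all arrays and called at an adjusted p under 0.05. The fits were tested on simulated data. Gene names come from the platform annotation, with 41097 probe sets naming 1 gene, 1801 several and 11777 none. All 32 members matched RefSeq.

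Members and lists were chosen with earlier results of these data known. The text names every called member, the 6 steepest rises and falls, the highest and lowest signals, and others where it says so. For the other lists and for probe sets other than the brightest, most slope calls are given only as counts. A replicate number marks an experiment, whose 2 chambers were run in parallel. They were compared without pairing, as the study's methods describe a test between 2 conditions and name no pairing term. Deviations of the chambers of an experiment from their group means correlated over probe sets with r from 0.0086 to 0.490. Alternatives were other scalings, an added 32, a filter, the replicate block and leaving out arrays. The array of the 0 ppm exposure chamber, replicate 2, differs from the other 17 in the day in its file label, and this was not tested as a batch. The number of arrays limits the precision.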

Additional observations from a re-analysis of the deposited data

Results flagged for a closer look

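HNRNPU, the nuclear matrix hnRNP, had chamber differences of opposite sign at the 2 formaldehyde concentrations in every experiment, although neither mean difference passed and 2 of the values at 0.5 ppm are near 0. Its log2 difference of exposure minus reference chamber was 0.72, 0.079 and 0.075 in the 3 experiments at 0.1 ppm and -0.024, -0.20 and -0.016 in those at 0.5 ppm. The mean at 0.5 ppm minus the mean at 0.1 ppm was -0.37, and this difference between concentrations was not tested. The largest of the 6 values, 0.72, was measured against the reference array of highest actin difference. At 0 ppm, without formaldehyde, the 3 values were -0.075, 0.66 and 0.57. HNRNPU was picked among the 32 members after the values were seen. How many probe sets of the array have opposite signs in this way is not given here, so these values are a description only.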

How the results depend on the processing

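In the group comparisons 0 of 32 members passed under every alternative but 2. With 32 added before the log, 1 passed between the chambers at 0.1 ppm, HNRNPA2B1 (0.44, SE 0.18). Leaving out 1 array gave 0 to 1 members between 0.1 and 0 ppm in the exposure chamber, the 1 being HNRNPA3P1 (1.27, SE 0.44) without replicate 3 of 0 ppm. The replicate block gave 0 in all comparisons of groups. Between chambers it pairs those of an experiment. Within the exposure chamber it pairs experiments of different concentrations that share a replicate number, and whether these share a day or passage is not stated. For the slopes over the actin difference, 14 members were called (6 rising, 8 falling), and leaving out 1 array gave 9 to 14 (3 to 7 rising, 5 to 8 falling). Without the 2 arrays of highest difference it was 3 (2 and 1), with the replicate block of 9 experiments 2 (0 and 2), and with GAPDH 0 (0 and 0). Within the 6 arrays of 1 concentration it was 0 (0 and 0) at 0, 0.1 and 0.5 ppm, and 0 (0 and 0) without the 2 arrays and with group means, both chosen after seeing the data. Group means alone left 5 rising and 5 falling. Quantile normalization gave 1 rising and 9 falling, with HNRNPK at -0.063. The mean over the probe sets of a gene gave 1 rising and 12 falling, with SRSF1 at -0.17, HNRNPC at -0.11, SRSF5 at -0.16 and TRA2B at -0.13. HNRNPA3P1 was at 0.010 within the 0.1 ppm experiments. Among these alternatives to the slope fit, the share of all probe sets called is given only for that without the 2 arrays. The other counts are therefore a description of the members alone. The cause of these changes was not tested.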
